A study of Sus scrofa with 15 samples.

Results

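The 10 genes described here encode isoforms of enzymes of 6 steps of glucose breakdown: hexokinase (HK1, HK2), phosphofructokinase (PFKL, PFKM), aldolase (ALDOA, ALDOC), phosphoglycerate mutase (PGAM2), enolase (ENO1, ENO3) and lactate dehydrogenase (LDHA). They were chosen by name, as isoforms used in fat and in muscle, out of 30477 genes in the count files, and all 10 passed the filter on low counts, as did 14918 genes in all. RNA was sequenced from backfat biopsies of Iberian pigs of about a year of age, with 1 library per pig and 5 pigs on each of 3 growing diets. The control (C) pigs received a compound feed, the DOP pigs a compound feed containing dry olive pulp, and the WCOC pigs a feed without by-product beside a silage of wet crude olive cake and barley straw. All pigs were of 1 breed. The compound feeds were rationed, that of C less tightly than the others, whereas the silage of the WCOC pigs was offered freely. Each diet was fed in its own pen, so diet and pen cannot be told apart, and the pigs sequenced were picked from larger groups by the amount and quality of their RNA.

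Glycolysis splits glucose into pyruvate, which lactate dehydrogenase can turn into lactate. Most steps can be run by several isoforms from separate genes, and tissues differ in the mix they use. HK2, the insulin-responsive hexokinase, is the main form of both skeletal muscle and adipocytes, whereas HK1 is found in most cells. PFKM, PGAM2 and ENO3 are the muscle forms of their steps, PFKL and ENO1 are the forms of liver and of most tissues, and ALDOC is best known from brain. In fat, glycolysis supplies the glycerol backbone of triglycerides and carbon for fatty acid synthesis. ACTA1, the actin of skeletal muscle fibres, serves here as the marker of muscle RNA.

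Libraries held between 22373715 and 34745218 counts on genes (median 28230154). Levels are given in CPM, counts scaled to library size with TMM factors. Of the 11 adipocyte markers found, CFD was at 0 in every library. ADIPOQ ran from 3087 to 8028 CPM and PLIN1 from 2115 to 4252 CPM, and the sum of the adipocyte list from 17089 to 26242 CPM. Skeletal muscle markers set libraries apart. ACTA1 measured 1357, 14.9, 1883, 108 and 37.5 CPM in C 1 to C 5, 12.6, 6543, 112, 3238 and 23994 CPM in DOP 1 to DOP 5, and 116, 48.3, 5.75, 377 and 26.1 CPM in WCOC 1 to WCOC 5. There were 5 libraries above 1000 CPM, which were C 1, C 3, DOP 2, DOP 4 and DOP 5, and the diets overlapped. The summed level of the 26 muscle markers found in the files (of 35 listed) had a median of 606 CPM in C (377 to 6546), 10469 CPM in DOP (348 to 75836) and 404 CPM in WCOC (284 to 1509), with TNNI2 at 0 everywhere. ACTA1 itself did not pass the test in any comparison (edgeR quasi-likelihood, Benjamini-Hochberg adjusted p 0.321 for DOP vs. C, 0.331 for WCOC vs. C and 0.0532 for WCOC vs. DOP). Sequencing also split the diets, since C 1 to C 4 and all WCOC libraries were run on one flow cell and C 5 and all DOP libraries on another. The flow cell is inferred from the run names deposited with the counts, as neither the sample titles nor the paper give it. By the same names C 1 to C 4 and WCOC 1 to WCOC 3 were on lane 2. WCOC 4, WCOC 5, C 5 and the DOP libraries were on lane 8 of their flow cells, and lane was not tested.

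**Figure D1:**
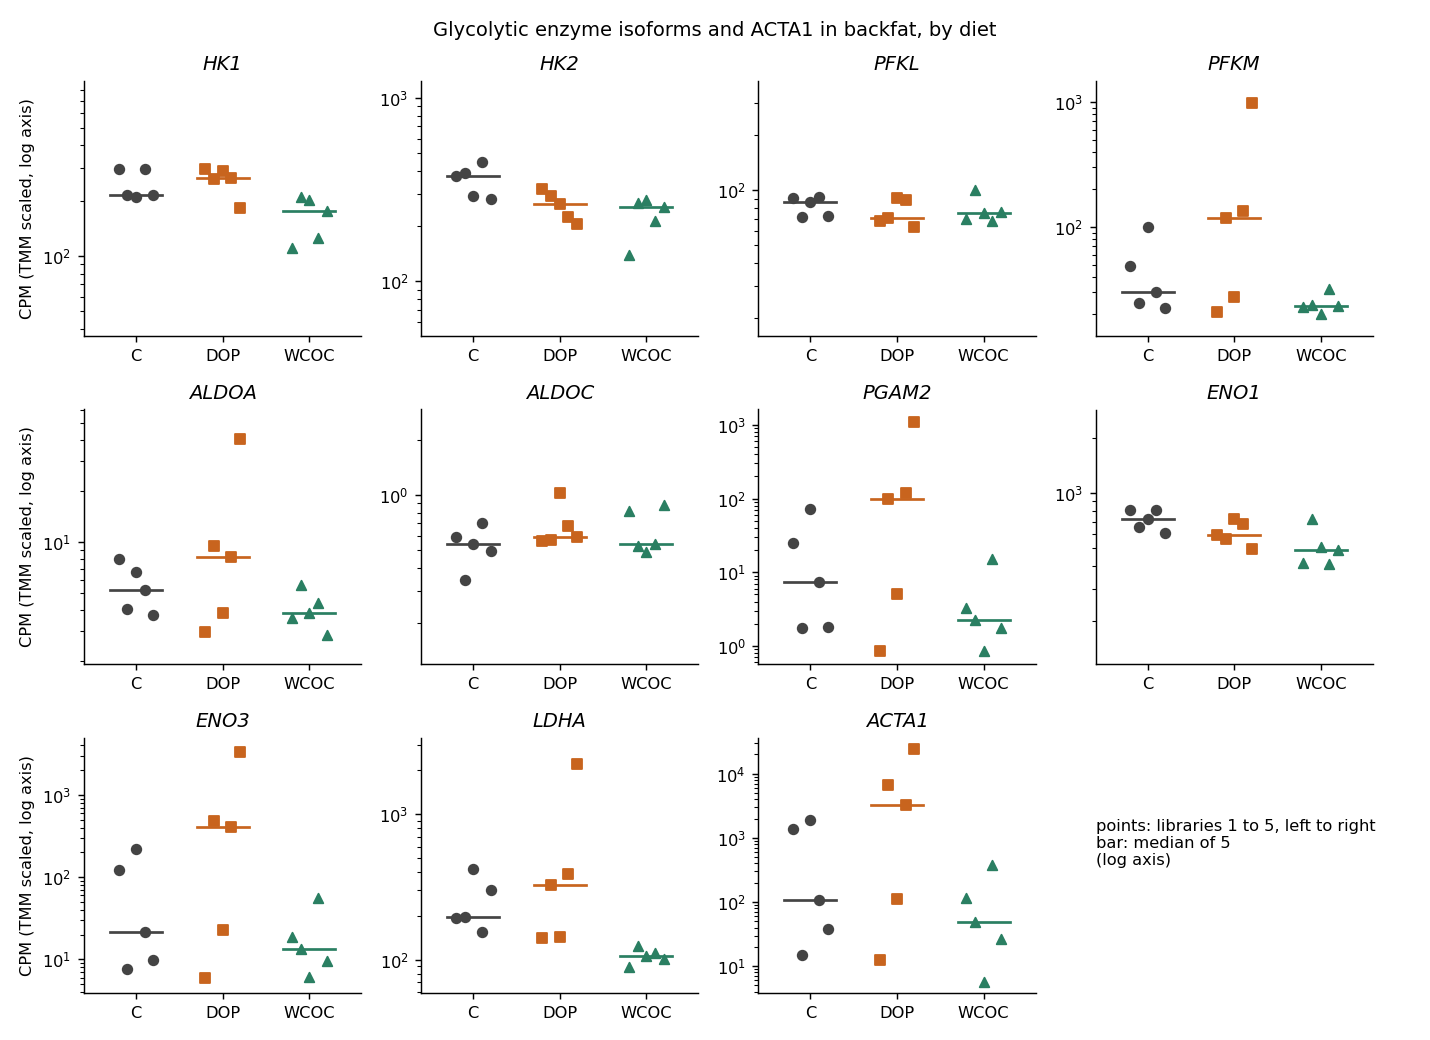
Level of the 10 isoforms and of ACTA1 in each library (CPM after TMM scaling, log axis, scales differ between panels), by diet; points are libraries 1 to 5 from left to right and bars are medians. PFKM, PGAM2, ENO3 and ACTA1 spread widely within C and DOP with DOP 5 on top (984, 1076, 3283 and 23994 CPM), whereas HK1, HK2, PFKL and ENO1 stay within a narrow band.

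Per kilobase of transcript, ENO1 was the most abundant of the 10 isoforms, with a median over the 15 libraries of 329 CPM per kilobase. LDHA followed at 91.8, HK2 at 89.4, HK1 at 59.2 and PFKL at 25.8 CPM per kilobase. The muscle forms had lower medians, of 14.99 for ENO3, 10.1 for PFKM and 6.28 CPM per kilobase for PGAM2. ALDOA was at 2.41 and ALDOC at 0.347 CPM per kilobase. The ranges of LDHA, HK2 and HK1 overlapped, so their order holds for the medians alone, and in DOP 5 the order was another, with ENO3 at 2289, LDHA at 1326 and PGAM2 at 1319 CPM per kilobase. The annotated ALDOA gene overlaps another gene on the opposite strand, as do PFKM, PGAM2 and ENO1, and the strand setting of the counting is not given in the sources used here, so counts of these genes are uncertain to that extent.

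The muscle forms of enolase and phosphoglycerate mutase varied most. ENO3 (ENSSSCG00000017904), which turns 2-phosphoglycerate into phosphoenolpyruvate in muscle fibres, lies on chromosome 12 of Sscrofa11.1 from 51954614 to 51959991 on the minus strand. It measured 123, 7.60, 218, 21.5 and 9.74 CPM in C 1 to C 5, 5.86, 475, 22.6, 409 and 3283 CPM in DOP 1 to DOP 5, and 18.6, 13.6, 6.14, 56.0 and 9.47 CPM in WCOC 1 to WCOC 5. The same 5 libraries that were high in ACTA1 held the highest values, and the diets overlapped.

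PGAM2 (ENSSSCG00000016720), the muscle enzyme that moves the phosphate of 3-phosphoglycerate, lies on chromosome 18 from 48693832 to 48712787 on the plus strand. Its level was 24.8, 1.75, 72.4, 7.36 and 1.82 CPM in C 1 to C 5, 0.844, 97.8, 5.12, 119 and 1076 CPM in DOP 1 to DOP 5, and 3.31, 2.28, 0.849, 15.02 and 1.74 CPM in WCOC 1 to WCOC 5. Lowest and highest DOP library thus differed 1276-fold, and again C 1, C 3, DOP 2, DOP 4 and DOP 5 lay above all others. Over the 15 libraries log2 CPM of PGAM2 and ENO3 had a Pearson r of 0.995, the closest pair among the 10 isoforms, and each had an r of 0.98 with ACTA1. These are descriptions of libraries that also share diet and flow cell.

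The bases before the starts of ENO3, PGAM2 and ENO1 are shown because the first pair moved together across libraries and ENO1, the other enolase gene, did not move with them (r with ENO3 0.01). The stretches are the 250 bases before the start of 1 RefSeq transcript per gene in Sscrofa11.1, 5′ to 3′ on the strand of the gene. They lie at chr12:51959992-51960241 (minus) for ENO3, chr18:48710242-48710491 (plus) for PGAM2 and chr6:69401169-69401418 (minus) for ENO1. PGAM2 has 5 annotated transcripts, ENO1 3 and ENO3 1, and starts of the other transcripts were not searched. The PGAM2 stretch lies inside the annotated span of its gene. Capitals mark matches, on either strand, to the MEF2 motif or to the E-box CANNTG. The MEF2 family of muscle factors binds the first. The MyoD family of muscle factors binds some forms of the second, which other factors also bind, and the pattern searched does not tell these forms apart.

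ENO3: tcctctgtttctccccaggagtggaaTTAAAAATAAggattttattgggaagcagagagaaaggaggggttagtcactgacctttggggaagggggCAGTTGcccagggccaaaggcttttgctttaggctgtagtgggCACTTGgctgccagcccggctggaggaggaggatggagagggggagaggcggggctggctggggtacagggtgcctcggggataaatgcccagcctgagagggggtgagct

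PGAM2: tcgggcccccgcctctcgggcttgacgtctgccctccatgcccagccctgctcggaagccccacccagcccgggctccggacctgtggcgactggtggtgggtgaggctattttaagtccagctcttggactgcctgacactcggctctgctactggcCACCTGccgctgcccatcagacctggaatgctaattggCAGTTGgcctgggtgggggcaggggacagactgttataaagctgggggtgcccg

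ENO1: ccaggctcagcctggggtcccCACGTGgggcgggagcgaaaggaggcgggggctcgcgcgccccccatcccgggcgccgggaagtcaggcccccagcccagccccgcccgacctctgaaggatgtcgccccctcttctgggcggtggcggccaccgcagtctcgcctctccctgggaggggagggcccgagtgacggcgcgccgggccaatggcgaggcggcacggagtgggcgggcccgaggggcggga

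ENO3 held 1 MEF2 match, starting 224 bases before the start, and E-boxes at 154 and 111 bases. PGAM2 held E-boxes at 92 and 54 bases and a TATAAA match (not in capitals) at 20 bases. ENO1 held 1 E-box, at 229 bases, and its stretch was 78.0% G and C, against 58% for ENO3 and 65.2% for PGAM2. Of 19544 promoters of the same length, 2.35% held a MEF2 match, 61.3% an E-box and 9.56% TATAAA. Among the 10 isoforms 1 had a MEF2 match and 8 an E-box. A match describes the letters and is no evidence of binding.

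PFKM (ENSSSCG00000021129), the muscle form of the enzyme that commits glucose to glycolysis, lies on chromosome 5 from 78475473 to 78525052. It measured 48.8, 24.6, 99.2, 30.4 and 22.7 CPM in C 1 to C 5, 20.8, 118, 27.8, 135 and 984 CPM in DOP 1 to DOP 5, and 22.97, 23.8, 20.1, 32.1 and 23.4 CPM in WCOC 1 to WCOC 5. Unlike PGAM2 it kept a floor of about 20 CPM in the libraries lowest in ACTA1, and the 5 highest values were those of the libraries high in ACTA1.

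LDHA (ENSSSCG00000013366), which reduces pyruvate to lactate and is the main form of fast muscle, lies on chromosome 2 from 40814163 to 40827284. Its values were 193, 197, 422, 155 and 300.03 CPM in C 1 to C 5, 141, 327, 144, 389 and 2231 CPM in DOP 1 to DOP 5, and 88.6, 124, 106, 112 and 101 CPM in WCOC 1 to WCOC 5. All 5 WCOC libraries lay below all C and all DOP libraries. C 5, with little ACTA1, stood higher than C 1, C 2 and C 4. The summed macrophage markers were highest in C 5 (872 CPM) and C 3 (667 CPM), against 142 to 368 CPM in WCOC. In DOP 1 to DOP 5 they were 484, 360, 259, 312 and 194 CPM, highest where LDHA was lowest and lowest where LDHA was highest. Of the 12 markers 7 were called lower in WCOC than in C, as were 3.93% of all genes, and the part of these markers in the LDHA level was not tested.

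HK2 (ENSSSCG00000008261), which traps glucose in the cell as glucose-6-phosphate, lies on chromosome 3 from 68155656 to 68231187. It measured 374, 391, 291, 447 and 282 CPM in C 1 to C 5, 320.4, 291, 265, 224 and 206 CPM in DOP 1 to DOP 5, and 139, 269, 279, 213 and 255 CPM in WCOC 1 to WCOC 5. The WCOC libraries lay below all C libraries, by a narrow margin between WCOC 3 and C 5, and the DOP libraries overlapped with both.

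HK1 (ENSSSCG00000010253), the hexokinase of most cells, lies on chromosome 14 from 72383328 to 72460927. It measured 299, 214, 209, 298 and 216 CPM in C 1 to C 5, 297, 263, 290.2, 265 and 183 CPM in DOP 1 to DOP 5, and 109.7, 209, 202, 126 and 175 CPM in WCOC 1 to WCOC 5. WCOC 1 and WCOC 4 were lowest, and WCOC overlapped with DOP through DOP 5.

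ENO1 (ENSSSCG00000022343), the enolase of most tissues, lies on chromosome 6 from 69385879 to 69401664. It measured 810.0, 653, 723, 805 and 604 CPM in C 1 to C 5, 594, 561, 723, 681 and 494 CPM in DOP 1 to DOP 5, and 416, 724, 506, 410.5 and 492 CPM in WCOC 1 to WCOC 5. WCOC 2 reached the level of the C libraries, and the other 4 WCOC libraries lay below all of them.

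Of the remaining isoforms, PFKL (ENSSSCG00000028197, chromosome 13), the liver-type phosphofructokinase, ran from 62.6 to 101 CPM over all 15 libraries, the smallest spread of the 10 (1.61-fold). ALDOA (ENSSSCG00000032556, chromosome 3), the aldolase of muscle and many other tissues, ran from 3.74 to 7.99 CPM in C, 2.97 to 40.3 CPM in DOP and 2.86 to 5.62 CPM in WCOC. These are low counts for a gene known as abundant in muscle and many tissues, against 672 to 9614 CPM for GAPDH in the same libraries, and the part of the overlapping gene on the opposite strand in them was not tested. ALDOC (ENSSSCG00000017759, chromosome 12) was barely detected, at 0.342 to 1.02 CPM, and its 268 reads over all libraries leave its differences imprecise.

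None of the 10 isoforms passed the test between DOP and C. Genes were called DEGs by edgeR's quasi-likelihood test where the Benjamini-Hochberg adjusted p was under 0.05 and the absolute log2FC reached 0.58. Over all genes tested 0.764% were called in this comparison. DESeq2 also called 0 isoforms, with an adjusted p of 0.0511 for PFKM, 0.0665 for ENO3, 0.0938 for PGAM2 and 0.156 for HK2. The study, also by DESeq2, named PFKM and HK2 among its DEGs for these diets, and the source of this difference was not tested. In the edgeR fit 6 isoforms had an unadjusted p under 0.05, against 17.6% of all genes. Fitted log2FC values were highest for the muscle forms, at 3.58 (SE 1.48, adjusted p 0.231 with edgeR) for PGAM2, 3.46 (SE 1.38, adjusted p 0.214) for ENO3 and 2.51 (SE 0.84, adjusted p 0.152) for PFKM. LDHA had 1.35 (SE 0.62) and HK2 -0.45 (SE 0.19). The median log2FC of the 10 isoforms was 0.79, against 0.01 over all genes, and 0 isoforms had values that did not overlap between the diets (3.47% of all genes).

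These fitted values rested on few libraries. Without DOP 5 the log2FC of LDHA for DOP vs. C was -0.02, that of PFKM 0.73, that of ALDOA 0.14, that of ENO3 1.58 and that of PGAM2 1.36. Without the 5 libraries above 1000 CPM of ACTA1, a choice made after the data were seen, PFKM was at -0.10, PGAM2 at -0.28 and LDHA at -0.62, while ENO3 was at 0.14. The 1 control library on the flow cell of the DOP libraries was C 5, and with flow cell as a covariate the log2FC was 7.15 (SE 3.79) for PGAM2, 6.43 (SE 3.36) for ENO3 and 3.50 (SE 1.83) for PFKM, none of them called. In bulk tissue a larger share of muscle cells and more RNA per muscle cell cannot be told apart.

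**Figure D2:**
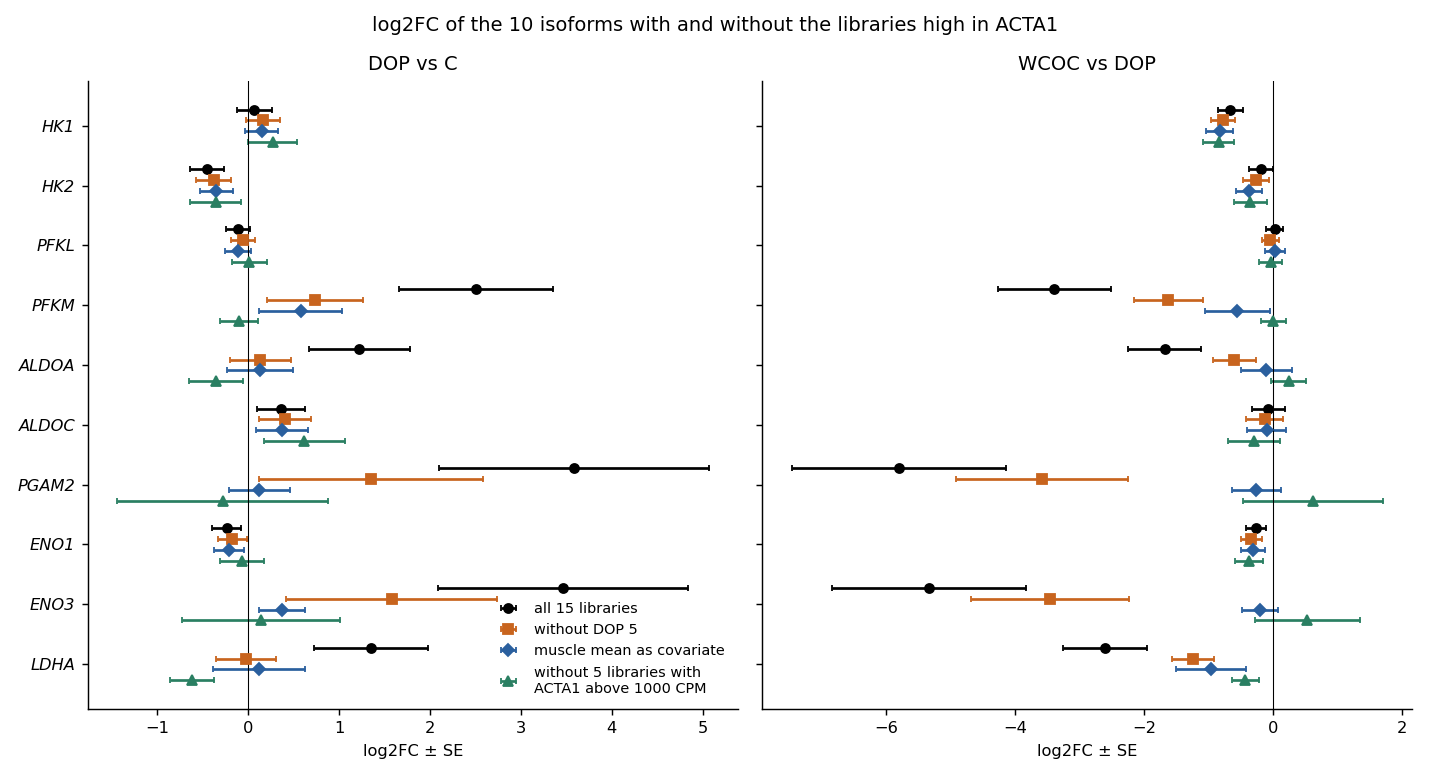
Fitted log2FC with its standard error for the 10 isoforms in DOP vs. C and WCOC vs. DOP, with all 15 libraries, without DOP 5, with the mean of the skeletal muscle markers as a covariate, and without the 5 libraries above 1000 CPM of ACTA1. The muscle forms move toward 0 (PGAM2 in WCOC vs. DOP from -5.80 to -0.26 with the covariate), whereas HK1 keeps a similar value (-0.66 and -0.82).

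HK2 was lower in WCOC than in C. Its level averaged 231 ± 57.1 CPM in WCOC and 357 ± 69.8 CPM in C (SD, n = 5), a log2FC of -0.63 (SE 0.19, adjusted p 0.0478, edgeR). It was the only called isoform of 10, with 6.25% of all genes called (3.93% as lower), so the count was close to that background, and 3 isoforms had an unadjusted p under 0.05 (26.4% of all genes). The call was marginal: it was kept in 4 of the 15 fits that left out 1 library (without C 5, DOP 1, DOP 5 or WCOC 2), and the adjusted p ran from 0.0397 to 0.106 over all 15. The value was -0.54 without C 4 and -0.49 without WCOC 1. Within the flow cell that held 4 C and all WCOC libraries it was -0.71 (adjusted p 0.0702). DESeq2 gave an adjusted p of 0.0115.

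Close to the threshold were HK1 (log2FC -0.59, SE 0.19, adjusted p 0.0658 with edgeR) and ENO1 (log2FC -0.50, SE 0.16, adjusted p 0.0615 with edgeR). HK1 was past both limits without DOP 5 (adjusted p 0.0461) and without WCOC 2 (0.0353), and ENO1 without WCOC 2 (0.00823), each with edgeR. The study, by DESeq2, named HK1 and HK2 among its DEGs for WCOC and C. DESeq2 gave HK1 an adjusted p of 0.0231 here. LDHA had a larger log2FC, of -1.26, with a larger error (SE 0.62, adjusted p 0.214), although its values did not overlap. The called gene changed with the libraries in the fit. On the C and WCOC libraries alone LDHA was called (adjusted p 0.0149, edgeR) and HK2 was not (0.0639). The same held on one flow cell, with LDHA at -1.20 (adjusted p 0.0310), and without the 5 libraries above 1000 CPM of ACTA1, with LDHA at -1.04 (adjusted p 0.0178) and HK2 at an adjusted p of 0.115. Without DOP 5 both were called (LDHA adjusted p 0.0227). LDHA and HK2 were the 2 isoforms without overlap between C and WCOC, as were 7.62% of all genes. PGAM2 (-2.22), ENO3 (-1.87) and PFKM (-0.88) had fitted log2FC below 0 with standard errors of 0.81 to 1.45, and adjusted p from 0.348 to 0.515. Without C 3 they were -0.93, -0.97 and -0.38, and without WCOC 4 PGAM2 was at -3.40. The DOP vs. C and WCOC vs. C comparisons share the control libraries.

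Between WCOC and DOP, 5 of the 10 isoforms were lower in WCOC and 0 higher, where 7.76% of all genes were called, 5.11% as lower. An unadjusted p under 0.05 was found for 6 isoforms and for 28.1% of all genes. PGAM2 had a log2FC of -5.80 (SE 1.66, adjusted p 0.0359), ENO3 of -5.34 (SE 1.51, adjusted p 0.0342) and PFKM of -3.39 (SE 0.88, adjusted p 0.0249). LDHA followed at -2.61 (SE 0.65, adjusted p 0.0213) and HK1 at -0.66 (SE 0.19, adjusted p 0.0380), all from edgeR. Only LDHA had values that did not overlap, as did 8.9% of all genes. ALDOA was at -1.67 (adjusted p 0.0649) and ENO1 at -0.26 (adjusted p 0.309). HK2, with a log2FC of -0.18 (adjusted p 0.583), and PFKL at 0.03 stayed far from the threshold. Every DOP library was run on one flow cell and every WCOC library on the other, so diet and flow cell cannot be told apart in this comparison.

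Muscle markers moved with these differences: 18 of the 25 tested skeletal muscle markers were lower in WCOC than in DOP and 0 higher. With the mean of those markers as a covariate the log2FC of WCOC vs. DOP became -0.26 for PGAM2, -0.20 for ENO3, -0.55 for PFKM and -0.96 for LDHA, none of them called. HK1 stayed called, at -0.82 (SE 0.21, adjusted p 0.0397, edgeR). In the model without the covariate HK1 was called in 8 of the 15 fits that left out 1 library (adjusted p 0.0261 to 0.0956, edgeR). That count was 14 for LDHA, 10 for PFKM and 9 for both PGAM2 and ENO3. The fits that left out a C library kept both compared diets whole, and each of them held 5 calls. Counts out of 15 thus overstate how stable these calls were. On the DOP and WCOC libraries alone HK1 was not called (adjusted p 0.0615, edgeR). Without the 5 libraries above 1000 CPM of ACTA1, 2 DOP and 5 WCOC libraries were compared, and 0 isoforms were called, with LDHA at -0.42 and HK1 at -0.84. Without DOP 5 alone HK1 and LDHA (-1.24) were called and PFKM (-1.62), ENO3 (-3.46) and PGAM2 (-3.58) were not. Without WCOC 1 no isoform was called, although PGAM2 was at -5.70, and without DOP 2, WCOC 3 or WCOC 5 the calls numbered 2, 2 and 1.

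**Figure D3:**
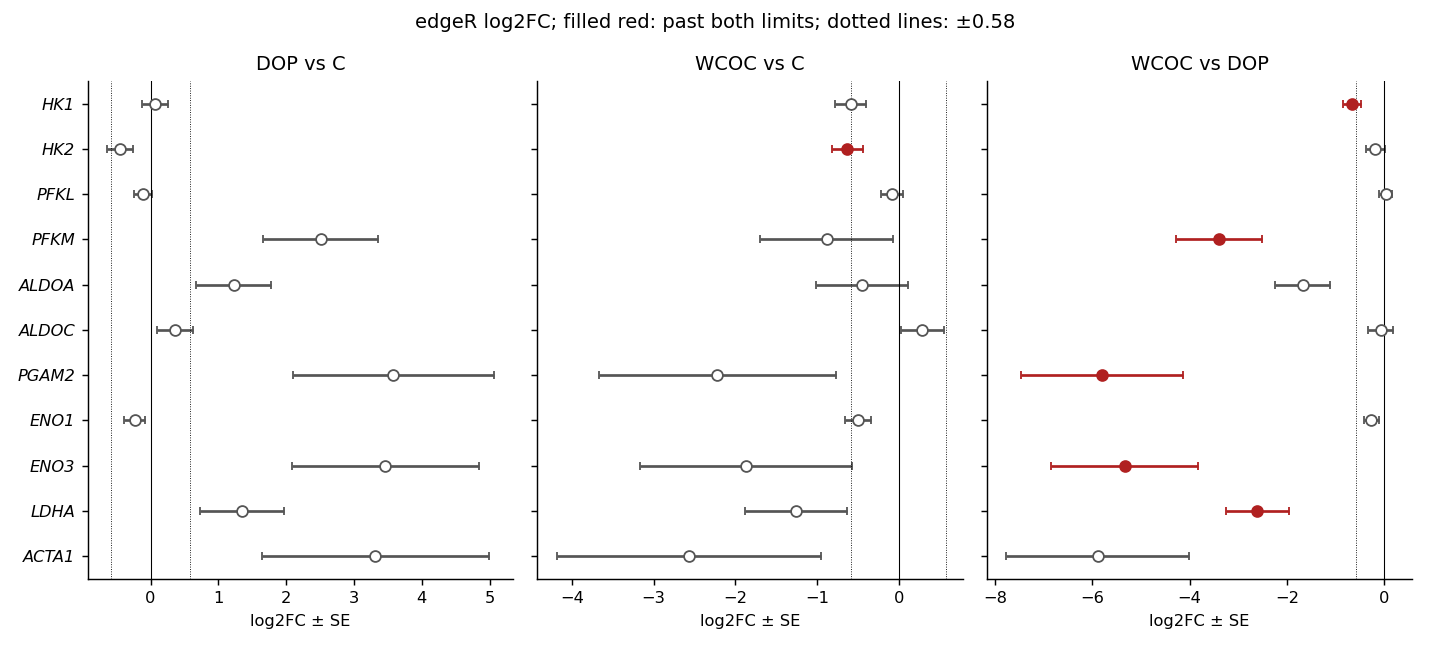
Fitted edgeR log2FC with its standard error for the 10 isoforms and ACTA1 in the 3 comparisons; filled red points are past both limits (adjusted p under 0.05 and 0.58 in size, dotted lines). The muscle forms carry standard errors of 0.81 to 1.66, against 0.13 to 0.26 for HK1, HK2, PFKL, ALDOC and ENO1.

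Within diets, 4 of the 10 isoforms rose with ACTA1. The slope of log2 CPM on log2 CPM of ACTA1, fitted beside diet in edgeR, was 0.85 (SE 0.06, adjusted p 9.91e-08) for PGAM2 and 0.74 (SE 0.05, adjusted p 7.99e-08) for ENO3. PFKM had a slope of 0.38 (SE 0.06, adjusted p 0.00256) and ALDOA of 0.24 (SE 0.05, adjusted p 0.0127). Over all 14917 genes tested 2.26% were called, 2.19% with a slope above 0, and 23 of the 24 other muscle markers tested were among them, so the slope follows the muscle list as a whole. LDHA had a slope of 0.22 (SE 0.06, adjusted p 0.102), which did not pass, and 0.11 without DOP 5 (adjusted p 0.321). ALDOA had a slope of 0.15 without DOP 5 (adjusted p 0.0161), still called. The slopes of HK1 and HK2 were both -0.04, that of ENO1 was -0.01 and those of PFKL and ALDOC were 0.00.

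The slopes of PGAM2 and ENO3 were also called on the 9 libraries of one flow cell and without the 5 libraries above 1000 CPM of ACTA1, but those of PFKM (0.19 and 0.11) and ALDOA (0.09 and 0.07) were not. The slope of ALDOA also lost its call without DOP 1 (0.22, adjusted p 0.140) and without DOP 3 (0.22, adjusted p 0.0529). Without DOP 5 and DOP 2, the libraries farthest from the median of ACTA1, the slope of ALDOA was 0.13 (adjusted p 0.0738).

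**Figure D4:**
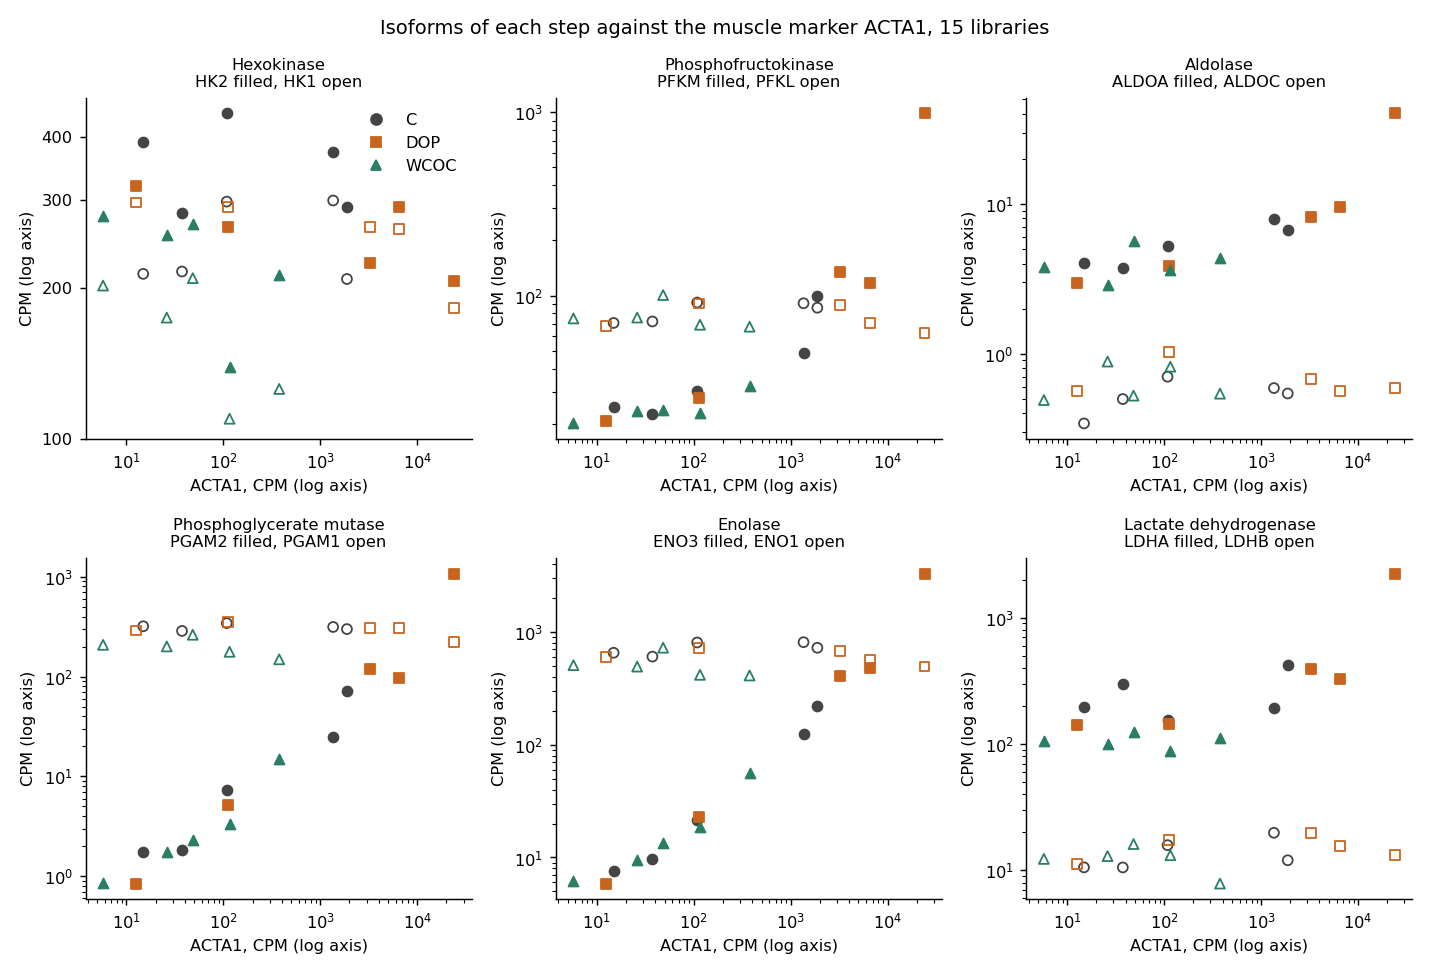
Level of paired isoforms of the 6 steps against ACTA1 in the 15 libraries (CPM, both axes log), with the muscle or second form filled and the other form open; colours and shapes give the diet. ENO3 and PGAM2 rise along the whole range of ACTA1 (slopes 0.74 and 0.85), PFKM and ALDOA turn upward above about 1000 CPM of ACTA1, and HK1, HK2, PFKL, PGAM1 and ENO1 show no such rise.

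The balance of isoforms within a step was compared as a ratio of CPM per kilobase, as a description with no test. ENO3 over ENO1 ran from 0.0149 to 0.386 in C, 0.0126 to 8.51 in DOP and 0.0155 to 0.175 in WCOC. ENO1 was the larger in 13 of the 15 libraries, and ENO3 exceeded it in DOP 2 (1.08) and DOP 5. In DOP 2 ENO3 had fewer CPM than ENO1 (475 and 561 CPM). That order therefore rests on the transcript lengths used, 1.434 kilobases for ENO3 and 1.836 for ENO1. PGAM2 over PGAM1, the form of most tissues, reached 10.96 in DOP 5 and was below 1 in the other 14 libraries. PFKM over PFKL was 16.6 in DOP 5, 1.75 in DOP 2, 1.60 in DOP 4 and 1.21 in C 3, and below 1 elsewhere.

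The hexokinases did not follow muscle RNA in this way. HK2 over HK1 was 1.45, 2.12, 1.61, 1.74 and 1.51 in C 1 to C 5, 1.25, 1.28, 1.06, 0.980 and 1.31 in DOP 1 to DOP 5, and 1.47, 1.48, 1.59, 1.96 and 1.69 in WCOC 1 to WCOC 5. All 5 DOP libraries lay below all C and all WCOC libraries, with DOP 1 and DOP 3, low in ACTA1, at 1.25 and 1.06. Neither hexokinase alone was without overlap between DOP and C or between WCOC and DOP. Of single genes 3.47% (DOP vs. C) and 8.9% (WCOC vs. DOP) did not overlap. The share among ratios of other gene pairs was not computed, so how unusual this ratio is remains unknown. C 5, the control on the flow cell of the DOP libraries, was at 1.51, and whether flow cell plays a part was not tested. In WCOC both hexokinases had lower means than in C, and the range of the ratio overlapped with that of C.

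**Figure D5:**
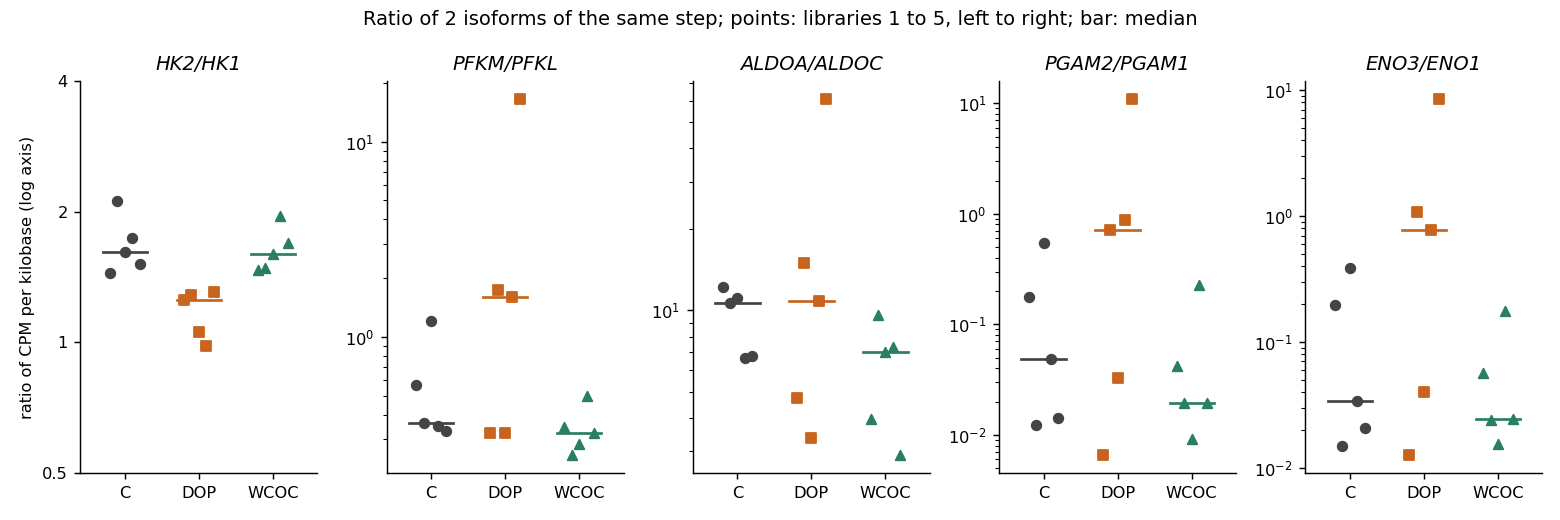
Ratio of CPM per kilobase between the isoforms of 5 steps in each library (log axis, scales differ between panels), by diet; points are libraries 1 to 5 from left to right and bars are medians. HK2/HK1 is lower in all DOP libraries (0.980 to 1.31) than in all C (1.45 to 2.12) and WCOC (1.47 to 1.96) libraries, and the other ratios spread widely within DOP. Ratios were not tested, and no share over other gene pairs was computed.

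The rest of the glycolytic pathway was read from a list of 20 further enzymes, of which 15 were tested. None was called between DOP and C, 1 was lower in WCOC than in C and 3 were lower in WCOC than in DOP, with none higher, where 0.764%, 6.25% and 7.76% of all genes were called. The 1 of 15 in WCOC vs. C was thus close to the background. PGAM1 was the enzyme lower in WCOC than in C, with a log2FC of -0.65 (SE 0.14, adjusted p 0.0131, edgeR), and PGAM1 was at -0.57 between WCOC and DOP, just under the limit on size. GAPDH, which oxidises glyceraldehyde-3-phosphate (log2FC -1.91), PKM, the pyruvate kinase of muscle and most other tissues (3.99-fold lower), and PGK1, the phosphoglycerate kinase (-0.98), were those lower than in DOP. GAPDH ran from 672 to 9614 CPM with its highest value in DOP 5, and its slope on ACTA1 of 0.19 was called (adjusted p 0.0452, edgeR). PKM had a slope of 0.17, which was not called (adjusted p 0.0680). GPI (slope 0.09), TPI1 (0.12), HK3, HKDC1, ADPGK, PFKP, ENO2 and LDHB were not called in any comparison or for the slope. LDHB, the heart form of lactate dehydrogenase, was at 7.85 to 19.9 CPM.

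A second list covered glucose entry and the control of glycolysis, with 24 of 28 genes tested. Between DOP and C 0 were called, 2 were lower in WCOC than in C and 5 lower in WCOC than in DOP, against the same shares of all genes. TIGAR, a bisphosphatase that opposes phosphofructokinase (log2FC -0.69, adjusted p 0.00447), and PDHB, a subunit of pyruvate dehydrogenase (-1.35, adjusted p 0.00678), were lower in WCOC than in C. Lower in WCOC than in DOP were PDHB (-1.62), PDHA1 (-0.58), PFKFB1 (-2.01), SLC16A3, a lactate exporter (-2.59), and SLC2A4, the insulin-dependent glucose transporter GLUT4 (-0.67, adjusted p 0.0483, edgeR). SLC2A4 was at -0.62 between WCOC and C (adjusted p 0.0718, edgeR), next to HK2, and its slope on ACTA1 was 0.00. The study named SLC2A4 among its DEGs for WCOC and C, and the source of this difference was not tested. Of the 5 genes, SLC16A3 alone had a called slope (0.26, adjusted p 0.0414). PFKFB3, which makes the activator of phosphofructokinase, was not called in any comparison, and SLC2A1 had no symbol match.

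As a description over the 15 libraries, the gene with the log2 CPM pattern most like that of each isoform was found among all tested genes. For PGAM2 it was CASQ1 (Pearson r 0.997), the calcium store protein of muscle fibres, for ENO3 MYL11 (0.995), a myosin light chain of fast fibres, and for PFKM PYGM (0.992), the muscle glycogen phosphorylase. ALDOA was closest to BZW2 (0.980) and LDHA to IDH2 (0.970), the mitochondrial NADP-dependent isocitrate dehydrogenase. HK1 was closest to PEDS1 (0.964), a plasmalogen synthesis enzyme, PFKL to PEF1 (0.946), and ALDOC to PRPF8 (0.779). ENO1 and HK2 were closest to genes without a symbol, ENSSSCG00000016737 (0.961) and ENSSSCG00000008097 (0.928). Among the isoforms, HK1 and ENO1 had an r of 0.823 with each other, against 0.05 for HK1 with ACTA1 and -0.23 for HK2 with ACTA1.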

How the data were processed

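The authors aligned paired reads to Sscrofa11.1 with HISAT2, told that the reads were strand-specific, and used HTSeq to count them by Ensembl gene. The deposited values are these raw counts, 1 file per pig, neither normalised nor pooled. Tool versions, the annotation release and the strand option of the counting are not given in the sources used here. Summary lines for pairs not counted (23.4% to 32.8% of a library) were left out.

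The analysis ran in R 4.3.3, with edgeR 4.0.16 as the main tool (filterByExpr by diet, TMM, quasi-likelihood test, 1 mean per diet over all 15 libraries). p-values were two-sided and adjusted by Benjamini-Hochberg over all tested genes, and the limits were those under which the study called DEGs. Slopes used diet and log2 CPM of ACTA1 (prior count 1). DESeq2 1.42.0 and further settings served as alternatives. Levels per kilobase used the length of 1 RefSeq transcript per gene, so orders and ratios between genes depend on that choice. Sequences are from the RefSeq assembly of the same build. The code was tested on simulated data. The p-values measure the spread between pigs of a pen.

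The isoforms, the lists and the tests were chosen with earlier results of these data known. Named are the 10 isoforms, ACTA1, other enzymes of the same steps (a few are not reported here) with GPI, TPI1, GAPDH, PGK1 and PKM, the called genes of the glucose list with SLC2A4, PFKFB1 and PFKFB3, and the gene most like each isoform.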

Additional observations from a re-analysis of the deposited data

Results flagged for a closer look

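Of 33 groups checked (10 isoforms and ACTA1, each in 3 diets of 5 pigs), 10 held a library far from the other 4, by Dixon's criterion at 95%. The check used CPM without a log, and its chance rate of about 1 in 20 groups assumes normally distributed values. Levels that spread as widely as 1908-fold within a diet (ACTA1 in DOP) do not meet this, so the rate is no guide here. The groups are also not independent because the same library recurs. All 10 were high values, which such a spread favours.

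DOP 5 gave 6 of them: PFKM at 984 CPM, ALDOA at 40.3 CPM, PGAM2 at 1076 CPM, ENO3 at 3283 CPM, LDHA at 2231 CPM and ACTA1 at 23994 CPM. It was the library with the highest summed muscle markers (75836 CPM). WCOC 4 gave another 2, PGAM2 at 15.02 CPM and ENO3 at 56.0 CPM, and it had the highest ACTA1 of the WCOC libraries (377 CPM). The last 2 were PFKL in WCOC 2, at 101 CPM against at most 76.0 CPM in the other WCOC libraries, and ALDOC in DOP 3, at 1.02 CPM against at most 0.676 CPM in the other DOP libraries.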

How the results depend on the processing

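Between DOP and C 0 isoforms were called under every alternative. The WCOC vs. C count of 1 became 0 without the filter and with the replicate block, 2 with the muscle covariate (HK1, HK2) and 2 with DESeq2 (HK1, HK2) and ran from 0 to 3 when 1 library was left out. It stayed at 1 with LDHA in place of HK2 with only the diets compared, on one flow cell and without the 5 libraries below. The WCOC vs. DOP count of 5 became 0 with the replicate block, 1 with the muscle covariate, 3 with only the diets compared, 6 with DESeq2 (ALDOA added) and 0 without the 5 libraries above 1000 CPM of ACTA1 (chosen after seeing the data), and ran from 0 to 5 when 1 library was left out. The 4 called slopes on ACTA1 became 2 on one flow cell and 2 without those 5 libraries. Replicate numbers do not pair the pigs: of 15 same-number pairs 3 correlated above 0.1 (r from -0.50 to 0.34), and 1 library was closest to its own number. The replicate block, given for completeness, took all genes called from 114 to 0 for DOP vs. C, 933 to 473 for WCOC vs. C and 1158 to 561 for WCOC vs. DOP.

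Other settings moved these totals too. DOP vs. C ran from 0 to 200 with 1 library left out and was 507 with DESeq2, 38 with the muscle covariate and 2 with only the diets compared. WCOC vs. C was 1493 without the limit on log2FC and 486 on one flow cell, and WCOC vs. DOP was 1842 without that limit and 448 with the muscle covariate. Without the 5 libraries they were 0, 354 and 92.

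Of 330 log2FC values under alternatives that left out no single library, 285 kept direction and side of the threshold, and of 495 with 1 library left out 444 did. Both shares are raised by fits that could change little. The 33 values without the limit on log2FC came from the main fit itself and could not turn. Among the 495 are fits that left out a library of a diet not compared. Directions turned as follows, and the cause was not tested. With the muscle covariate, ACTA1 in DOP vs. C was -0.035. ACTA1 is itself in the list averaged for that covariate, so its value near 0 was set by construction. In WCOC vs. C with the same covariate PFKM was 0.029, ALDOA 0.029 and ENO3 0.18. With flow cell as covariate, DOP vs. C gave PFKL 0.075 and ENO1 0.017. Without the 5 libraries, DOP vs. C gave PFKL 0.013, PFKM -0.10, ALDOA -0.36, PGAM2 -0.28 and LDHA -0.62, WCOC vs. C gave PGAM2 0.35, ENO3 0.68 and ACTA1 1.10, and WCOC vs. DOP gave PFKL -0.031, PFKM 0.0098, ALDOA 0.25, PGAM2 0.63, ENO3 0.54 and ACTA1 0.87, while the slope of LDHA was -0.012. The slope of ENO1 was 0.011 without DOP 5 and DOP 2, and that of ALDOC -0.0076 on the other muscle markers. Leaving out 1 library gave LDHA in DOP vs. C -0.023 to 1.60, and in WCOC vs. DOP PFKL -0.084 to 0.10 and ALDOC -0.21 to 0.12. Slopes then ran from -0.012 to 0.015 for PFKL, -0.021 to 0.025 for ALDOC and -0.021 to 0.00037 for ENO1. Depth limits ALDOC (268 reads in all) and PGAM2 at its lowest levels.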
